A study of Homo sapiens with 10 samples.

Results

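Genes of the response to low oxygen and of glycolysis were followed across 3 histone acetylation marks in immortalized human astrocytes. The 10 genes were VEGFA, ADM, SLC2A1, SLC2A3, HK2, PFKFB3, LDHA, BNIP3, NDRG1 and EGLN3, chosen by name and not by their values. Each gene was read in its hg19 window widened by 10 kb on both sides, and all 10 had an island (a stretch called as enriched) in at least 1 of the 9 lists. The windows held 395 of the 778773 islands of the 9 lists. The cells were a fetal astrocyte line immortalized with SV40, and CUT&RUN, in which an antibody tethers a nuclease that releases nearby DNA, was run with antibodies against H3K9ac, H3K27ac and H4K16ac. The labels give 3 groups: cells without doxycycline, with the genotype WT IDH1, and cells given doxycycline at 1 µg/ml for 2 days or for 7 days, with the genotype IDH1-R132H. Doxycycline served to switch on the mutant enzyme in the induced groups, and whether the line is a single clone is not given in the sources used here. The only negative control was an untreated library made with the HRP-coupled secondary antibody alone. There was 1 library per mark and time, so no value below has a replicate error and no test between times was possible. Doxycycline was never given without the mutant enzyme, so the drug, time in culture and IDH1-R132H cannot be told apart. The lists carry no gene names, and the cell type was not checked against marker genes.

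Cells sense oxygen through prolyl hydroxylases, which use oxygen and 2-oxoglutarate to mark the alpha subunit of the factor HIF for destruction. When oxygen is low the subunit is spared, pairs with ARNT and binds the cores ACGTG or GCGTG near its targets, among them genes for glucose uptake, glycolysis and blood vessel growth. IDH1-R132H is a mutant enzyme of gliomas whose product, 2-hydroxyglutarate, resembles 2-oxoglutarate. H3K9ac and H3K27ac are typical of promoters and enhancers in use, while H4K16ac spreads more widely over open chromatin.

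Promoters are shown for 4 genes that had an island of all 3 marks at the gene start at some time and a HIF core in a RefSeq promoter, using the promoter with most cores. The sequences come from RefSeq on GRCh38.p14, run from 250 bases before to 50 bases after the start, and are written 5′ to 3′ along the gene. Capitals mark the cores ACGTG and GCGTG found on either strand. CACGTG holds ACGTG on both strands. The islands are on hg19, so these bases were not placed within them.
SLC2A1, chr1:42958819-42959118, minus strand: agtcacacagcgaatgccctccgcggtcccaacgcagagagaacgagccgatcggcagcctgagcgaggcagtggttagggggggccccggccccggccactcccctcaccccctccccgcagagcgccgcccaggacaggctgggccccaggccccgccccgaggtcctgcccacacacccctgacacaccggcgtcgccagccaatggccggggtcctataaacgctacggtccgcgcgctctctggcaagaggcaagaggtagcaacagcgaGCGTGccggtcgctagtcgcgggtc
HK2, chr2:74834920-74835219, plus strand: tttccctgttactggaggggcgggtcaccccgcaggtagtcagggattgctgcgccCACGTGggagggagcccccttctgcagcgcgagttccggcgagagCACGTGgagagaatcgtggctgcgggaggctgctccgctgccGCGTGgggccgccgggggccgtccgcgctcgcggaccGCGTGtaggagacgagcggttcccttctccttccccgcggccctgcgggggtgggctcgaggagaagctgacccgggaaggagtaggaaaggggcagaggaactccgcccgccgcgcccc
PFKFB3, chr10:6202682-6202981, plus strand: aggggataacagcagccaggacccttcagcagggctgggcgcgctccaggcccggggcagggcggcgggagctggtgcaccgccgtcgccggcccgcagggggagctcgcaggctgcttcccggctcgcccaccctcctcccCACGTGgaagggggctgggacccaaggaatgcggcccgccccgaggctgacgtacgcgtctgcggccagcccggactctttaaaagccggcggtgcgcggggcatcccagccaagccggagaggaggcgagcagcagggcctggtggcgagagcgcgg
LDHA, chr11:18394313-18394612, plus strand: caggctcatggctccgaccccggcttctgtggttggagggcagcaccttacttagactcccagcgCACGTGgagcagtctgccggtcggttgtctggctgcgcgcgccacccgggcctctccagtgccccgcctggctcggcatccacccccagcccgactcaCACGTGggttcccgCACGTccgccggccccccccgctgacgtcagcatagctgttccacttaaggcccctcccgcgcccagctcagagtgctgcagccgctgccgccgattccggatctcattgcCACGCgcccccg
The LDHA promoter holds 5 copies of ACGTG and 1 of GCGTG, counted over both strands, and the HK2 promoter holds 4 and 2. The PFKFB3 promoter shown is the downstream one of a pair that lie 58.0 kb apart and not the one at the gene start, where the islands of the 3 marks were counted. Its 2 copies of ACGTG are the 2 strands of a single CACGTG. SLC2A1 has 1 GCGTG, 26 bases past the start, and no ACGTG. The promoter table holds 10 promoters of 7 of the genes, and 9 of these 10 hold either core and 5 hold ACGTG. Over all 35116 promoters of the table, 48.4% hold either core, 21.4% hold ACGTG and 36.5% hold GCGTG. A match is only a match of letters, and it shows no binding.

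The measure was the number of antibody reads in the islands of a window divided by the size of that library relative to the HRP library, called scaled reads below. Relative library size ranged from 1.49 to 7.88 over the 9 libraries. At 7 days it was 0.375 times its untreated value for H3K27ac and 3.11 times for H4K16ac. Within each mark the list of a larger library covered more of the genome. A sum over islands moves with how much was called, and the level per kb of island often gave the opposite sign: for 9 of 9 genes for H3K9ac at 2 days, 5 of 9 at 7 days, 8 of 9 for H3K27ac at 2 days, 1 of 9 at 7 days, 1 of 6 for H4K16ac at 2 days and 8 of 8 at 7 days. A direction given below for a sum is that of the sum alone unless the level per kb is named. In each list the weakest islands had from 11 to 33 reads. Intervals are exact 95% counting intervals and cover no difference between libraries. The background for a change was all 50 kb tiles of the genome where both libraries had an island and 1 of them reached 50 reads.

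Of the 9 genes with H3K9ac and H3K27ac islands in all libraries, none had a window that was 2-fold higher or lower for either mark at 2 or 7 days. Over all tiles the share that was 2-fold changed was 6.01% to 16.3%, so a count of 0 of 9 lies close to the background. Summed H3K27ac was slightly lower at 2 days and slightly higher at 7 days in most windows, and only the 7-day direction held per kb of island, in 8 of 9 genes. Per kb the tiles were higher at 7 days as well, with a median log2 ratio of 0.44 beside 0.50 over the genes. H3K9ac had no common direction. For H4K16ac VEGFA, ADM and SLC2A3 had islands without doxycycline and none at 2 days, at starting counts where 2.92% (VEGFA) and 40.5% (ADM and SLC2A3) of tiles had none either. EGLN3, the gene with the least acetylation, had islands at its start only in libraries from induced cells. It has no ratio, and of tiles with at least 50 and under 100 H3K9ac reads at 2 or 7 days, 22.7% and 30.7% had no untreated island.

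For H3K27ac at 2 days, 9 genes had islands in both libraries and 0 of the 9 were changed 2-fold, against 6.01% of the tiles. Their median log2 ratio over untreated cells was -0.23, beside -0.13 over all tiles, and 7 of the 9 counting intervals lay below 0. Reads per kb of island ran the other way, with a median of 0.14 over the genes and 0.15 over the tiles. At 7 days 0 of the 9 genes were changed 2-fold, against 14.7% of the tiles. All 9 ratios were above the tile median of -0.13, ranging from 0.03 for LDHA to 0.29 for NDRG1 with a median of 0.18. Of the 9 intervals, 7 lay above 0. How many tiles have intervals that leave out 0 was not counted at either time, so these interval counts have no background. Among tiles with at least 300 reads the median was -0.21, and all 9 genes were above that as well. Per kb of island the genes had a median of 0.50 and the tiles 0.44. Between 2 days and 7 days the median was 0.49 over the genes and -0.02 over the tiles, with 0 of 9 genes and 14.7% of tiles at 2-fold. These comparisons share libraries, and the part that the smaller 7-day library has in them was not tested.

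For H3K9ac the genes went both ways. At 2 days 0 of 9 genes were changed 2-fold, against 16% of tiles, and the median log2 ratio was 0.05 over the genes and -0.01 over the tiles, or -0.06 and -0.04 per kb of island. At 7 days 0 of 9 genes were changed 2-fold, against 16.3% of tiles, and the medians were -0.07 and 0.06, or -0.18 and -0.19 per kb of island. At 2 days 3 of the intervals lay above 0 and 2 below, and at 7 days 2 lay above and 3 below. The tiles were not counted in this way. From 2 days to 7 days, 0 of 10 genes and 14.8% of tiles were changed 2-fold, with medians of -0.16 and 0.08, or -0.10 and -0.14 per kb of island.

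For H4K16ac at 2 days, 6 genes had islands in both libraries and 1 of them, BNIP3, was at least 2-fold lower, against 13.9% of tiles. The median log2 ratio was -0.53 over the 6 genes and 0.16 over the tiles, or -0.11 and -0.20 per kb of island. At 7 days 8 genes had islands in both libraries and 2 of them, SLC2A3 and PFKFB3, were at least 2-fold higher, against 35.5% of tiles. The median was 0.64 over the genes and 0.70 over the tiles as summed reads, but -0.53 and -0.60 per kb of island, so its direction flipped with the measure. From 2 days to 7 days, 3 of 6 genes were at least 2-fold higher (SLC2A1, BNIP3 and NDRG1), against 29.2% of tiles. All 6 ratios were below 0 per kb of island, at -0.22, -0.31 and -0.17 for those 3 genes, with a median of -0.30 over the genes and -0.38 over the tiles. Library size was 2.55-fold larger at 7 days than at 2 days, and its part in these values was not tested.

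**Figure D1:**
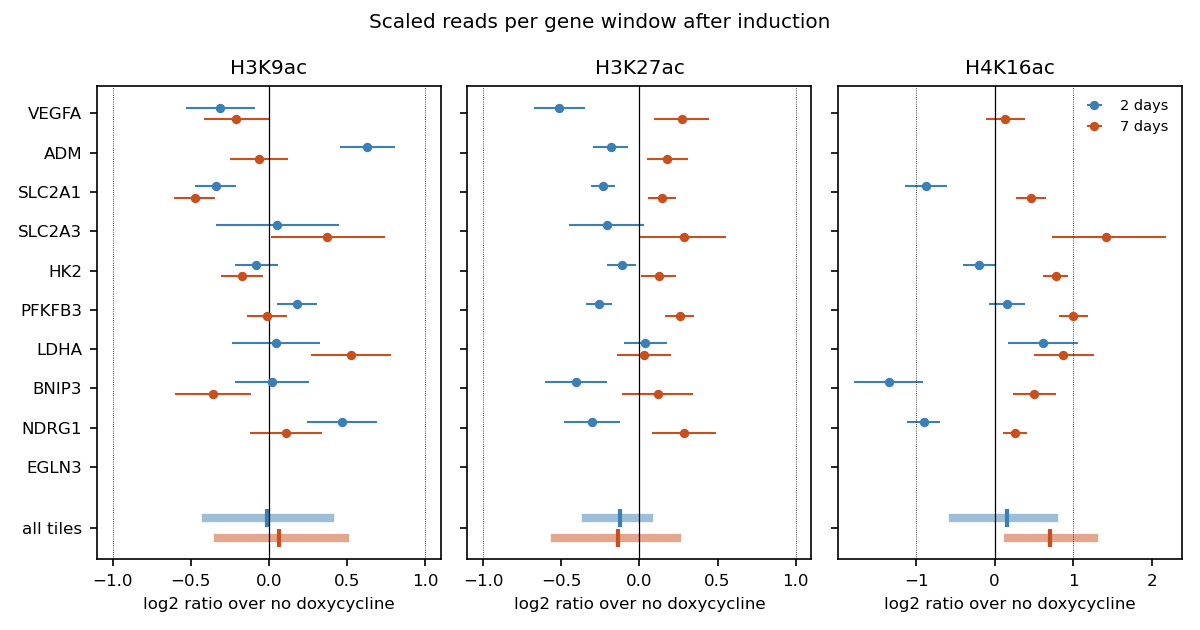
Log2 ratio of scaled reads over cells without doxycycline for each gene (rows) and mark (panels), at 2 days (blue) and 7 days (orange). Points are ratios with 95% counting intervals, a missing point means no island in 1 or both libraries, dotted lines mark 2-fold, and the bars at the bottom give the tile median and quartiles. The H3K27ac points at 7 days all lie to the right of the tile median of -0.13, and the H4K16ac points, on a wider axis than the other panels, are spread most widely.

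VEGFA (hg19 chr6:43738001-43754000, plus strand) encodes the growth factor that draws in blood vessels. Its window held 108 scaled H3K9ac reads in untreated cells, 86.8 at 2 days and 93.2 at 7 days, and 220.3, 154 and 266 scaled H3K27ac reads in the same order. The H3K27ac log2 ratio was -0.51 (-0.68 to -0.35) at 2 days and 0.27 (0.09 to 0.44) at 7 days, so the 2-day sum was the lowest of the 3 and these intervals lay on opposite sides of 0. Both ratios were above 0 per kb of island, at 0.43 and 0.39. H4K16ac had 5 islands with 174 reads without doxycycline, no island at 2 days, and 2 islands with 595 reads at 7 days. Scaled by library size these were 68.7 and 75.5 reads without doxycycline and at 7 days. The log2 ratio was 0.14 (-0.11 to 0.39) as a sum and -0.73 per kb of island. Of tiles with at least 100 and under 300 H4K16ac reads without doxycycline, 2.92% had no island at 2 days. None of those H4K16ac islands touched the start: the untreated islands lay from 4.4 to 23.2 kb past it and from 7.6 to 6.4 kb before it, and the 7-day islands from 3.4 to 25.4 kb past it.

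ADM (chr11:10326001-10329000, plus strand) encodes adrenomedullin, a secreted peptide that widens blood vessels. For H3K27ac its window held 411 scaled reads without doxycycline, 361 at 2 days and 465 at 7 days. H3K9ac stood at 129.9, 201 and 124 scaled reads, and the 2-day value was the largest H3K9ac ratio among the genes at 1.55-fold, a log2 ratio of 0.63 (0.45 to 0.80). Of its 838 reads at 2 days, 287 lay in an island from 12.6 to 27 kb past the start that reached far beyond the window. With each island counted in proportion to its part inside the window the log2 ratio was 0.12, and per kb of island it was -0.51. H4K16ac had 2 islands with 42 reads without doxycycline and none at 2 or 7 days. Of tiles with at least 1 and under 50 reads without doxycycline, 40.5% had no island at 2 days and 34.7% had none at 7 days. The 42 reads lie near the top of that class. Among tiles with at least 50 and under 100 reads the shares were 14.6% and 8.26%.

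SLC2A1 (chr1:43391001-43425000, minus strand) encodes GLUT1, the glucose transporter of many cell types. Its H3K27ac window held 896 scaled reads without doxycycline, 763 at 2 days and 989.8 at 7 days. Most of them lay in a single island over the start, which ran from 5.2 kb before to 28.6 kb past it without doxycycline, with 2670 of 3567 reads. At 2 days that island had 1816 reads and at 7 days 1261, and its level was 19.8, 23.1 and 24.2 scaled reads per kb of island. H3K9ac was lower at both times, at 301, 238 and 217 scaled reads, with log2 ratios of -0.34 (-0.47 to -0.21) and -0.48 (-0.60 to -0.35). The 7-day ratio was the lowest H3K9ac ratio among the genes. H3K9ac per kb of island gave 0.07 and -0.10, so that at 2 days the direction depended on the measure. H4K16ac held 112, 61.3 and 154 scaled reads, with the 2-day library lowest.

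SLC2A3 (chr12:8072001-8089000, minus strand) encodes GLUT3, a transporter with high affinity for glucose, and has the close paralog SLC2A14 as its neighbour in RefSeq. How the authors placed reads that map to both is not given in the sources used here. Its H3K9ac window held 31.2, 32.4 and 40.3 scaled reads in the order of times. H3K27ac stood at 88.2, 76.3 and 107 scaled reads, with the 7-day interval of the log2 ratio at 0.00 to 0.56. H4K16ac had 1 island with 19 reads without doxycycline, in the class of tiles of which 40.5% had none at 2 days. It had none at 2 days and 2 islands with 158 reads at 7 days, which gave a log2 ratio of 1.42 (0.73 to 2.19). The ratio compared different places: the untreated island lay 2.2 to 1.4 kb before the start, and the 7-day islands lay at both edges of the window, 25.4 kb past and 8.8 kb before the start or farther. In proportion to the part inside the window the log2 ratio was 0.32, and per kb of island it was -1.49.

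**Figure D2:**
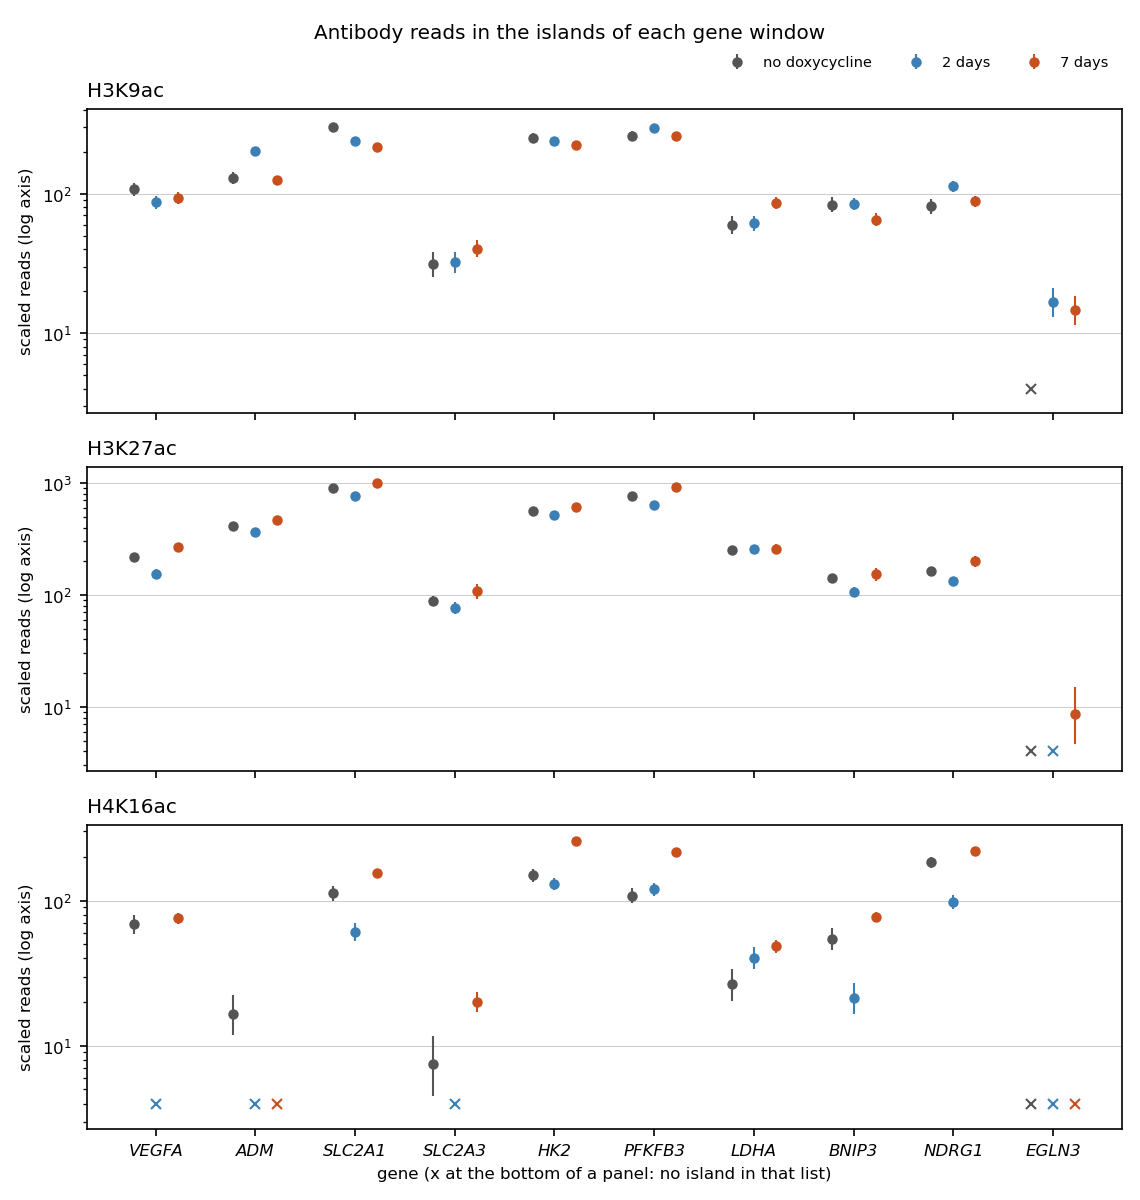
Scaled reads in the islands of each gene window (log axis) by mark (panels) without doxycycline (grey), at 2 days (blue) and at 7 days (orange). Bars are 95% Poisson counting intervals of 1 library each, and a cross means that the list had no island there. ADM, SLC2A1, HK2 and PFKFB3 are high for H3K27ac at all times, EGLN3 is lowest, and VEGFA, ADM and SLC2A3 have no H4K16ac island at 2 days.

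HK2 (chr2:75060001-75120000, plus strand) encodes hexokinase 2, which traps glucose in the cell as glucose 6-phosphate. Its H3K9ac window held 252, 238 and 223 scaled reads. For H3K27ac it held 561, 518 and 611 scaled reads, and the largest H3K27ac island in every list lay inside the gene, from 7.4 to 22.8 kb past the start without doxycycline and from 8.4 to 20.4 kb at 7 days. That inner island held 307, 279 and 300.4 scaled reads, against 120.3, 112 and 164 in the island at the start. The start island narrowed from 8.0 kb to 4.4 kb between the untreated and the 7-day list, and its level went from 15.0 to 37.2 scaled reads per kb. As a sum the start island's log2 ratio was 0.44 (0.21 to 0.67). H4K16ac was 149.7, 131 and 256 scaled reads, with a 7-day log2 ratio of 0.78 (0.62 to 0.94) as a sum and -0.50 per kb of island.

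PFKFB3 (chr10:6187001-6278000, plus strand) encodes an enzyme that makes fructose 2,6-bisphosphate, an activator of phosphofructokinase. Its H3K9ac window held 259.8, 294 and 258 scaled reads. H3K27ac stood at 765, 639.6 and 914 scaled reads, with log2 ratios of -0.26 (-0.34 to -0.18) at 2 days and 0.26 (0.16 to 0.35) at 7 days. These were 0.28 and 0.50 per kb of island. Besides the island at the start, both H3 marks had an island in every list between 54.6 and 61.0 kb past it, where no H4K16ac list had one. The downstream promoter shown above lies 58.0 kb past the other one on GRCh38, a distance within that stretch, but it was not placed on hg19. That inner island held 143, 107 and 172 scaled H3K27ac reads and 59.4, 54.6 and 52.2 scaled H3K9ac reads. The H3K27ac island at the start held 208, 132 and 129 scaled reads. The untreated island there was 15.4 kb long and ran from 11.8 kb before to 3.6 kb past the start, a stretch called as 2 islands in each of the other lists. Over all islands of that stretch the values were 208, 175 and 218, above the inner island in each list. H4K16ac went from 108 and 120.3 scaled reads to 217 at 7 days, a log2 ratio of 1.00 (0.82 to 1.19) that was 2.00-fold and only just met the rule. Per kb of island it was -0.52, and with islands in proportion 0.87.

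LDHA (chr11:18416001-18430000, plus strand) encodes the lactate dehydrogenase subunit that favours lactate formation. Its H3K27ac window held 251, 258 and 256 scaled reads, with log2 ratios of 0.04 (-0.10 to 0.17) and 0.03 (-0.14 to 0.20). An upstream island at the window's edge held 426 of the 999 untreated reads and lay mostly outside the window. With islands in proportion the values were 168, 175 and 219, and the 7-day log2 ratio was 0.38. H3K9ac stood at 59.7, 61.6 and 85.8 scaled reads, and its 7-day log2 ratio of 0.52 (0.27 to 0.78) was the highest 7-day H3K9ac ratio among the genes. Per kb of island that ratio was -0.66. H4K16ac held 26.5, 40.5 and 48.5 scaled reads. All 9 lists had an island upstream of the gene, which in the untreated H3K9ac list spanned chr11:18404401-18406600, between 11.6 and 9.4 kb before the start. There H3K27ac reached 46.1 scaled reads per kb at 2 days, against 16.2 at the LDHA start in that list.

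BNIP3 (chr10:133781001-133795000, minus strand) encodes a mitochondrial outer membrane protein that triggers the removal of mitochondria by autophagy. Its H3K9ac window held 83.3, 84.4 and 65.1 scaled reads, and H3K27ac 140.4, 106 and 152. H4K16ac held 54.5, 21.4 and 77.0 scaled reads, and the 2-day log2 ratio of -1.35 (-1.79 to -0.92) was the lowest of all ratios over untreated cells. The island from 8.4 to 13.0 kb past the start was in both lists, with 55 reads without doxycycline and 66 at 2 days, or 21.7 and 21.4 scaled reads. The difference lay in the other 3 untreated islands, of 23, 30 and 30 reads, which had no counterpart at 2 days. In the window that was not widened the log2 ratio was -0.65, under 2-fold, and per kb of island it was -0.04. At 7 days an island of 356 reads ran from 0.4 to 11.6 kb past the start.

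NDRG1 (chr8:134249001-134310000, minus strand) encodes a cytoplasmic protein that is made under many stresses, low oxygen among them. By value it was the only gene with more scaled H4K16ac than H3K27ac reads without doxycycline and at 7 days. H4K16ac stood at 184, 98.2 and 220.2 scaled reads and H3K27ac at 163, 132 and 199. Without doxycycline the counting intervals were 168 to 202 against 151 to 176, and at 7 days 210 to 231 against 177 to 223. They overlapped at both times, so the marks are not ordered there. The marks come from different antibodies, and whether their levels share a scale was not tested. H3K9ac held 81.3, 112 and 87.8 scaled reads, with a 2-day log2 ratio of 0.47 (0.24 to 0.69) as a sum and -0.46 per kb of island. The start island had nearly the same coordinates in all 3 H3K9ac lists, with 38.0, 42.7 and 42.8 scaled reads. Its HRP count was 8 in each, but all lists share 1 HRP library, so this is no further comparison. The extra H3K9ac reads at 2 days lay elsewhere in the window, which had 8 islands then and 5 in each of the other lists. For H3K27ac the start island held 117, 106 and 138 scaled reads while its level per kb was 15.0, 22.1 and 28.8. Its H4K16ac lay mostly in the gene body, in 8, 6 and 9 islands, and touched the start only without doxycycline, with 25 reads.

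EGLN3 (chr14:34393001-34420000, minus strand) encodes PHD3, one of the prolyl hydroxylases of the pathway and itself a HIF target. It had no island of any mark without doxycycline. H3K9ac had 2 islands with 70 reads at 2 days and 2 islands with 71 reads at 7 days, or 16.8 and 14.5 scaled reads. The H3K9ac libraries were 1.37 and 1.60 times the untreated size, and their part in this was not tested. One island of each pair touched the start, with 23 reads at 2 days and 35 at 7 days and an HRP count of 0 in both. The other lay inside the gene, from 11.0 to 14.0 kb past the start at 2 days and from 11.6 to 12.6 kb at 7 days. H3K27ac had 1 island, of 13 reads at the start, at 7 days. H4K16ac had none in any list. These counts are close to the smallest islands of the lists, so the absence of an island does not show that the mark was absent.

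**Figure D3:**
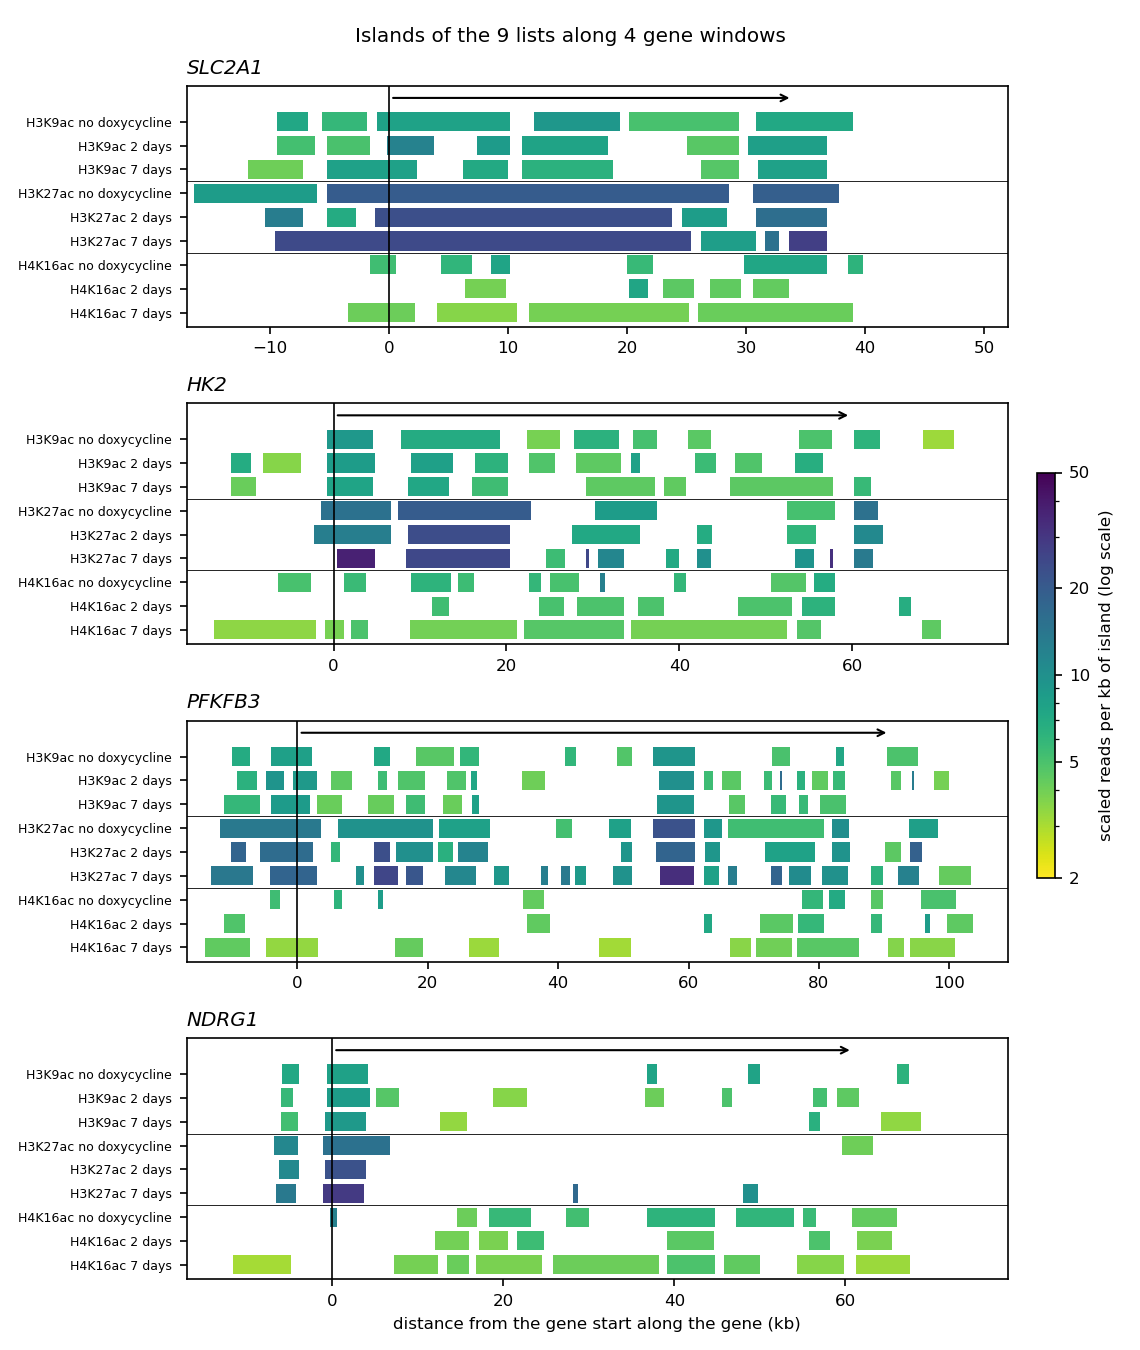
Islands of the 9 lists (rows) along SLC2A1, HK2, PFKFB3 and NDRG1, by distance from the gene start in kb along the direction of the gene (arrow). Colour gives scaled reads per kb of island on a log scale. The H3K27ac islands of SLC2A1 cover the start and most of the gene, and the H4K16ac islands of NDRG1 lie mostly in the gene body. HK2 and PFKFB3 have a strong island inside the gene, which for PFKFB3 lies at about the distance of its downstream promoter.

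At the gene starts H3 acetylation was nearly always present and H4K16ac was not. An island within 2 kb of the start was found for 9, 10 and 10 genes in the H3K9ac lists, for 9, 9 and 10 in the H3K27ac lists, and for 4, 1 and 5 in the H4K16ac lists, in the order of times. EGLN3 was the gene without a start island of either H3 mark in the untreated cells. The genes with all 3 marks at the start were SLC2A1, SLC2A3, HK2 and NDRG1 without doxycycline, LDHA at 2 days, and SLC2A1, HK2, PFKFB3, LDHA and BNIP3 at 7 days. LDHA at 2 days had 46 H4K16ac reads in its start island. Without an hg19 annotation these counts, and the read shares below, have no share over all gene starts beside them. Whether they differ from those of other genes was not tested. Relative library size for H4K16ac was 2.53, 3.08 and 7.88 in the order of times, and its part in the counts was not tested.

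Start islands carried 55.0%, 57.2% and 53.8% of the H3K27ac reads of the 10 windows and 39.8%, 35.3% and 40.7% of the H3K9ac reads. The PFKFB3 islands at about the distance of its downstream promoter were not counted as start islands. For H4K16ac the shares were 6.02%, 3.16% and 12.6%, and 87.1%, 90.7% and 76.4% lay farther downstream. The median level of the start islands was 8.15, 8.69 and 7.88 scaled reads per kb for H3K9ac. For H3K27ac it was 15.0, 16.2 and 21.8. HK2 and ADM were the highest at 7 days, at 37.2 and 36.0 scaled H3K27ac reads per kb, against 15.0 and 19.9 without doxycycline. Their start islands were shorter at 7 days, at 4.4 and 9 kb against 8 and 14.6 kb. Per kb of island the tiles were higher at 7 days too, with a median log2 ratio of 0.44. Ranked by reads per kb within its list, the HK2 start island stood at percentile 88.0 without doxycycline and 98.2 at 7 days. The ADM start island stood at 96.9 and 97.2. As sums the HK2 and ADM start islands had log2 ratios of 0.44 (0.21 to 0.67) and 0.16 (0.00 to 0.31) at 7 days. As sums the H3K27ac start islands of the 9 genes had median log2 ratios of -0.22 at 2 days and 0.22 at 7 days, or -0.06 and 0.42 per kb of island. PFKFB3 and LDHA were below 0 at both times, with -0.65 (-0.83 to -0.48) and -0.38 (-0.58 to -0.19) at 2 days and -0.69 (-0.92 to -0.46) and -0.45 (-0.72 to -0.19) at 7 days. Per kb of island PFKFB3 was above 0, at 0.26 and 0.41, and LDHA was at 0.11 and -0.08. Over all islands of the stretch that the start islands of the 3 lists cover, PFKFB3 was at -0.25 (-0.41 to -0.09) and 0.07 (-0.12 to 0.25), while LDHA kept its values, having a single island there in each list.

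**Figure D4:**
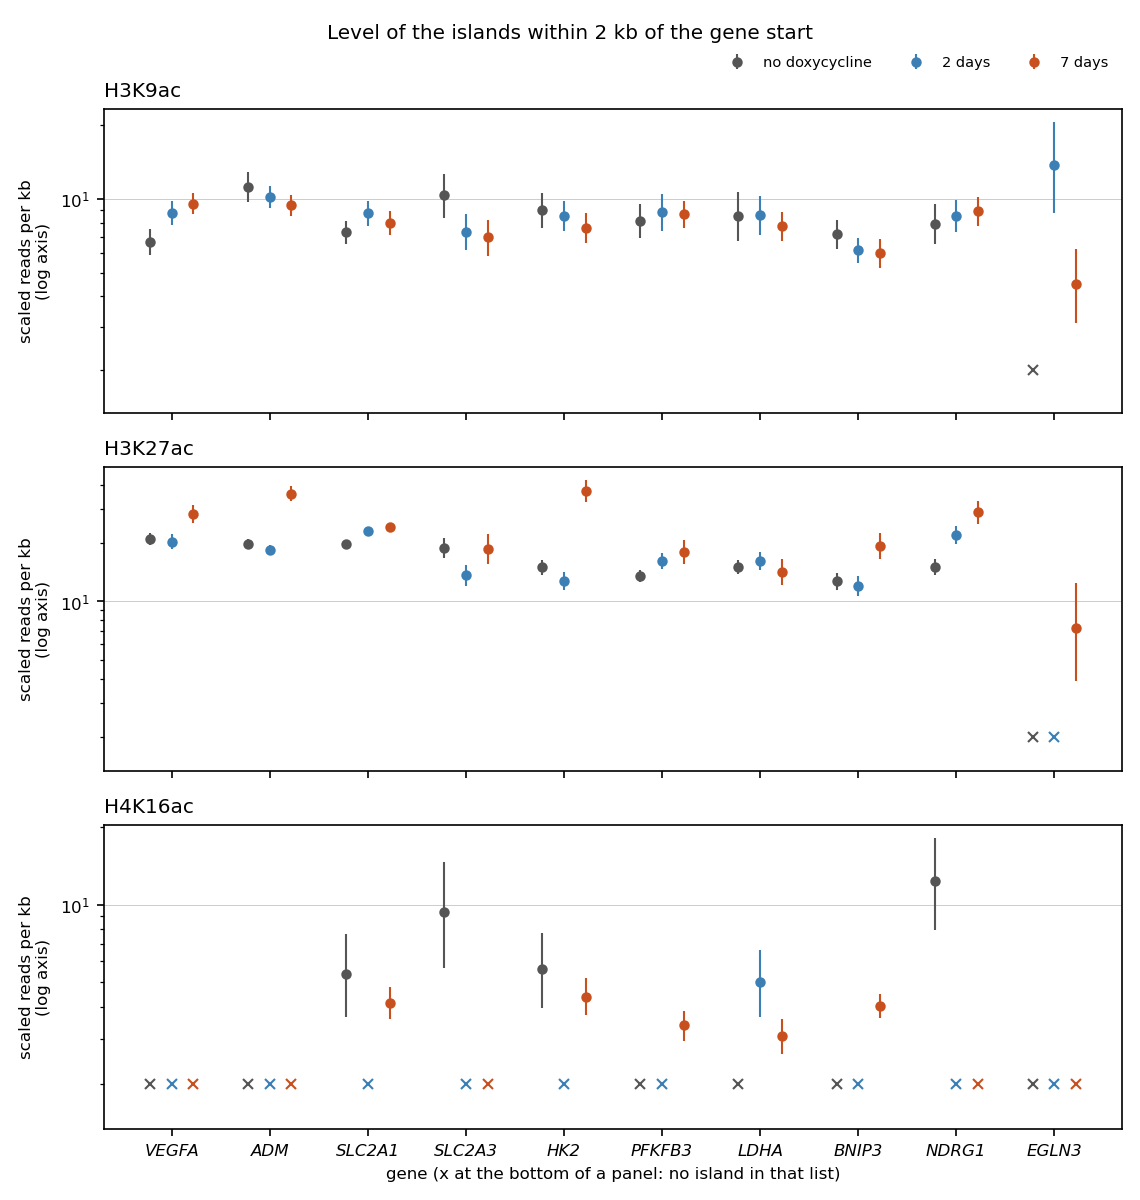
Level of the islands within 2 kb of each gene start, as scaled reads per kb of island (log axis), by mark (panels) and time (colours as in the plot of window reads). Bars are 95% Poisson counting intervals of 1 library each, and crosses mean no island at the start. H3K27ac at 7 days is highest for HK2 and ADM, and most genes have no H4K16ac island at the start.

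The order of the genes by level, as scaled reads per kb of window, was much the same at each time for the H3 marks, with ADM and SLC2A1 at the top and EGLN3 last in all 6 H3K9ac and H3K27ac lists. Which of the top 2 led depended on how islands that reach past a window were counted. As whole islands ADM had the higher value in all 6 lists, and for H3K27ac it stood at 17.8, 15.7 and 20.2 scaled reads per kb against 16.6, 14.1 and 18.3 for SLC2A1. Their counting intervals overlapped in both untreated lists and for H3K27ac at 7 days, so they are not ordered there. With islands in proportion SLC2A1 was above ADM in 4 of the 6 lists, at 15.6, 14.0 and 18.3 against 15.2, 12.3 and 16.7 for H3K27ac and at 5.58 against 4.73 for untreated H3K9ac. HK2 and PFKFB3 had H3K27ac ranks between 3 and 5 by whole islands and 3 or 4 in proportion. By whole islands LDHA had rank 3, above both, without doxycycline and at 2 days, and rank 5 at 7 days. At 2 days its interval did not overlap that of HK2. In proportion LDHA had rank 5 or 6. VEGFA had rank 6 by whole islands and 5 or 6 in proportion. Neighbouring intervals among HK2, PFKFB3 and LDHA overlapped without doxycycline and at 7 days. BNIP3, SLC2A3 and NDRG1 had H3K27ac ranks 7, 8 and 9 at every time under both counts. These ranks depend on window length, which ran from 23 kb for ADM to 111 kb for PFKFB3. As scaled reads per window, not divided by length, NDRG1 was above BNIP3 and SLC2A3 in each H3K27ac list. The intervals of SLC2A3 and NDRG1 overlapped without doxycycline and at 7 days. For H4K16ac the order was another one. NDRG1 had the highest value without doxycycline, at 2.27, but its interval overlapped that of SLC2A1, at 2.08. HK2 led at 2 and 7 days, at 1.64 and 3.20. ADM had H4K16ac rank 8 without doxycycline and no island at 2 and 7 days.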

How the data were processed

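Each of the 9 antibody libraries has an island list, and the HRP library enters through the control counts in them. The submitters' processing notes name the genome build hg19, Bowtie2 2.3.5.1, SICER, Picard, cutadapt, deepTools and FastQC, with settings not given in the sources used here. Per the file headers, the deposited lists hold per island the read counts of the antibody and of the HRP library, not normalized. They also hold the authors' log2 fold over HRP, a deposited p-value and FDR, and a deposited score, which was 100 times the log2 fold. The largest FDR in a list lay between 0.0491 and 0.0499.

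Relative library size is the constant that the authors' log2 fold subtracts, the same for all islands of a list. Whole islands that overlap a window by at least 1 base were summed. Start islands lie within 2 kb of the gene-start end of the window, which is rounded to whole kb. Intervals are exact Clopper-Pearson (ratios) and exact Poisson (levels) intervals at 95%. PCR reads are not independent molecules, so they cover counting error only. The summed reads of a list, 4209773 to 18664203, are not its depth. The labels name no spike-in. Computation used Python 3.11.15, numpy 2.4.6, pandas 2.3.3, scipy 1.17.1 and matplotlib 3.10.9. The tile ratios were tried on counts simulated over the untreated islands. The extent of these islands was held fixed, so differences in how much was called were not covered.

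All 10 genes are named. The genes and lists were chosen with earlier results of these data known. The comparison of 7 days with 2 days, the tiles with at least 300 reads, the tiles without an island, the comparison of near-equal start islands, the islands over a common stretch, the levels in proportion and the overlap of marks were added after values were seen. Promoters were printed for at most 4 genes, in order of role, using the promoter with most cores, and BNIP3 also met the rule. Other genes of the pathway were not analysed here, because no hg19 annotation was used. Exons, introns and UTRs were not assigned for the same reason. VEGFA, SLC2A3 and NDRG1 have no entry in the promoter table used. Alternatives tried were other scalings, islands, windows and thresholds.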

Additional observations from a re-analysis of the deposited data

How the results depend on the processing

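No paired analysis was possible because each mark and time has 1 library and the labels give no replicate numbers. H3K9ac and H3K27ac kept 0 genes at 2-fold under most settings, and H4K16ac did not keep its counts or directions. Scaled by reads in islands, H4K16ac at 7 days had 0 genes at 2-fold and a median log2 ratio of 0.13. As the plain ratio of antibody to HRP reads, which carries the depth of the antibody library, the medians were 0.37 and 0.65 for H3K9ac at 2 and 7 days, -1.05 for H3K27ac at 7 days with 5 genes at 2-fold, and 0.39 and 1.25 for H4K16ac at 2 and 7 days with 6 genes at 2-fold at 7 days. BNIP3 at 2 days was then 0.86 for H4K16ac. That ratio divided by library size, added after the plain one was seen, gave H3K27ac medians of 0.034 and 0.37 with 1 gene at 2-fold at 2 days, and H4K16ac medians of 0.10 and -0.39 with 0 and 1 genes, BNIP3 at 0.58 at 2 days and PFKFB3 at -0.087 at 7 days. Per kb of island the H3K27ac medians were 0.14 and 0.50, and the H4K16ac medians -0.11 and -0.53 with 0 and 1 genes, PFKFB3 at -0.52 and SLC2A3 at -1.49 at 7 days. With FDR at most 0.001 and a log2 fold of at least 1, 2 genes were at 2-fold for H3K9ac at 7 days and 2 for H4K16ac at 2 days, and H4K16ac at 7 days had 1 gene and a median of -0.18. With islands in proportion, or at least 50% inside the window, H4K16ac at 7 days had 0 genes. At 1.5-fold there was 1 gene for H3K9ac at 2 days, and 4 for H4K16ac at 2 and at 7 days. In windows that were not widened the number of genes at 2-fold for H4K16ac at 2 days was again 1, but it was NDRG1, at -1.15, and not BNIP3, at -0.65. At 7 days the 2 genes were PFKFB3 and VEGFA, at 1.17 and 1.70, and SLC2A3 had no ratio. Of the single ratios, 14 moved beyond their counting intervals under that setting and 33 did not. Start islands over a common stretch and levels with islands in proportion were added after values were seen. The causes of these differences were not tested. Without replicates, differences smaller than those between libraries of one kind cannot be seen, and the lists hold no reads outside islands.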

Other observations

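H3K9ac and H4K16ac islands overlapped H3K27ac islands by a larger share in these windows than over whole lists. Of the H3K9ac island bases in the 10 windows, 83.0%, 68.4% and 69.5% were also in an H3K27ac island without doxycycline, at 2 days and at 7 days, against 54.4%, 45.5% and 35.2% over the whole lists. For H4K16ac bases in H3K27ac islands the shares were 43.4%, 39.2% and 44.8%, against 32.4%, 24.9% and 19.1%. H4K16ac bases in H3K9ac islands were closer to the lists, at 39.0%, 44.7% and 43.0% against 41.1%, 43.7% and 43.6%. These shares have no test, and islands of a window are not independent. The windows were placed on genes, while the whole lists also hold islands away from genes. Windows of other genes were not compared, so whether the larger shares are particular to these genes was not tested.

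Some start islands had nearly the same extent at a pair of times, sharing at least 80% of both lengths. Their sums turn less on how much was called, but are not free of it. For H3K27ac, 3 such genes had log2 ratios over untreated cells between -0.33 and -0.10 at 2 days, with 1 of the 3 intervals below 0, and 3 had ratios between 0.20 and 0.33 at 7 days, with 2 of the 3 intervals above 0. VEGFA was in both sets, with 194, 154 and 226 scaled reads in its start island. That island was 9.2, 7.6 and 8 kb long, and per kb of island its log2 ratios were -0.06 and 0.42. For H3K9ac, 3 genes compared at 7 days lay between -0.24 and 0.17, and 0 of the 3 intervals left out 0.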
